A study of Mus musculus with 68 samples.

Results

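The NSL complex genes described here are the 10 mouse genes Mcrs1, Kat8, Kansl1, Kansl2, Kansl3, Phf20, Phf20l1, Hcfc1, Ogt and Wdr5, chosen by symbol among the 24421 reference genes that every table lists. Each of the 10 was found in all 68 libraries, on 1 row each. The study followed cumulus cell-derived embryos made by somatic cell nuclear transfer (SCNT) and asked, in fertilized embryos, what a morpholino oligo (MO) against Max or Mcrs1 does. RNA of about 10 cells per library was copied and sequenced by Smart-seq2, which reads polyadenylated RNA. For each library the authors deposited a TPM value (transcripts scaled to the library's total) of each gene.

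Cumulus cells (CCs), the nuclear donors of the SCNT embryos, came from BDF1 mice, which also gave the oocytes, and gave 3 libraries. The 53 SCNT libraries comprised 6 each at 6 and 14 hours post activation (hpa), early 2-cell (E2C), late 2-cell (L2C), 8-cell (8C) and morula, 5 at 4-cell (4C), and 6 each from blastocyst inner cell mass (ICM) and from trophectoderm (TE). The other 12 libraries came from blastocysts of fertilized zygotes (C57BL/6j parents) that had been injected with a morpholino, with 2 libraries each for the ICM and TE under control MO, Max MO and Mcrs1 MO. The control MO libraries carry the labels control and untreated, while the treatment protocol names a random-sequence morpholino for the control. The labels do not state whether replicates came from separate sets of embryos. The paper describes the SCNT replicates as biologically independent and the morpholino replicates as biological. Each p-value below measures the spread between libraries.

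The NSL (non-specific lethal) complex is built around KAT8 (MOF), an acetyltransferase that places acetyl groups on histone H4, including lysine 16. KANSL1 is its scaffold, KANSL2 and KANSL3 are further subunits, and MCRS1, a forkhead-associated-domain protein, belongs to this complex and to the INO80 chromatin remodeller. PHF20 and PHF20L1 are related readers of methylated lysine. WDR5 is also a core subunit of the COMPASS histone H3 lysine 4 methyltransferases, OGT is the enzyme that attaches O-linked N-acetylglucosamine to proteins, and HCFC1 (host cell factor) is both its substrate and a partner of many transcription factors.

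In the deposited mm10 coordinates, Mcrs1 spans chr15:99242817-99251961 on the minus strand, and Kansl2 (chr15:98517658-98534269, minus) and Phf20l1 (chr15:66577572-66645255, plus) lie on the same chromosome. Phf20 (chr2:156196647-156309953, plus) and Wdr5 (chr2:27515147-27536538, plus) share chromosome 2. Kat8 lies at chr7:127912517-127925762 on the plus strand, Kansl1 at chr11:104333229-104442291 and Kansl3 at chr1:36335730-36369181, both on the minus strand. Hcfc1 (chrX:73942792-73966357, minus) and Ogt (chrX:101640051-101684351, plus) are the X-linked genes of the set. Smart-seq2 does not mark strand, so reads of the 174 bases that Mcrs1 shares with 1700120C14Rik, or of the 46 bases that Kat8 shares with Prss8, cannot be assigned to either gene.

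Start-site windows, 250 bases before to 50 bases after each annotated start, were taken from RefSeq (GRCm38.p6) and matched 9 of the 10 genes, with 13 windows. The windows of Mcrs1 (chr15:99251912-99252211, minus strand), the gene that was targeted, and of Hcfc1 (chrX:73966308-73966607, minus) and 1 of those of Ogt (chrX:101639801-101640100, plus), the genes whose RNA was lower in the ICM under both morpholinos, read as follows, with capitals for the letters CCGGAAG (an ETS core) and AAGATGGC (a YY1 core).
Mcrs1: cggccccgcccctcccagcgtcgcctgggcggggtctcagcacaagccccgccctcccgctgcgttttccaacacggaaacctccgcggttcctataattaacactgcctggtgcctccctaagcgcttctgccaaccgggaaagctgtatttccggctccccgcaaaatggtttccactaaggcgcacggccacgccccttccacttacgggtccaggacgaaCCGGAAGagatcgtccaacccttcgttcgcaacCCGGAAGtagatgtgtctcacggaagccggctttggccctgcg
Hcfc1: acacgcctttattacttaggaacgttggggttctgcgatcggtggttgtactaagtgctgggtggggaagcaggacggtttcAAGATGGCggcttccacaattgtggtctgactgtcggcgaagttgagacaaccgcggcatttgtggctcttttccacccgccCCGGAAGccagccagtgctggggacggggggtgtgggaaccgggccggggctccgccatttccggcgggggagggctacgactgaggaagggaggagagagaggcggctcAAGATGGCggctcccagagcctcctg
Ogt: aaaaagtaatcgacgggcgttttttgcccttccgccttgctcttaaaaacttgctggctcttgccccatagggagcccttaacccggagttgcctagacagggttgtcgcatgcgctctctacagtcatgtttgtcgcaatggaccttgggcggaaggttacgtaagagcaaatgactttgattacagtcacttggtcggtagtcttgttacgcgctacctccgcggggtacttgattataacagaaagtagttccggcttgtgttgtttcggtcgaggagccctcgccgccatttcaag
CCGGAAG was found on either strand in windows of 3 of the genes (Mcrs1, Kat8 and Hcfc1) and in 8.86% of all 32851 windows, or those of 9.93% of all 27025 genes. AAGATGGC was found for 2 (Kansl2 and Hcfc1) and in 2.75% of all windows (3.19% of genes). The E-box CACGTG, which MAX binds with MYC family partners, was found in the windows of 0 of the 9 genes and in 7.15% of all windows (8.09% of genes). The letters of the ETS and YY1 cores were picked after the windows had been seen. These are matches of letters, and binding was not measured here.

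Aligned gigabases, taken as coverage over FPKM, ranged from 1.00 to 5.17 per library, and the reference genes held 30.4 to 94.4% of the TPM. The tables hold no read counts, so counting error is unknown. In 13 libraries at least 1 of 12 housekeeping genes was below 1 TPM, so a low value of 1 gene in 1 library can be a missed gene. SCNT ICM replicates 1, 2 and 3 reached 1 TPM for only 6771, 6177 and 6228 genes, against 9011 or more in replicates 4 to 6. The summed TPM of 12 cumulus markers was 2228 to 3526 in CCs and at most 60.4 in any SCNT library. Summed over 10 TE markers, SCNT TE libraries held 5176 to 16210 TPM and SCNT ICM libraries 1961 to 8439. In the SCNT ICM this sum was mostly Krt8 and Krt18, with means of 2221 and 2211 TPM and at least 1061 and 678.7 TPM in every library. Gata3 had a mean of 285.8 TPM there. Cdx2, Gata2 and Elf5 had means of 3.34, 3.7 and 5.65 TPM there, each with a lowest value of 0.

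Over the 9 SCNT stages and lineages, 9 of the 10 genes differed (limma's moderated F-test, adjusted p under 0.05 and at least 2-fold between the lowest and highest stage), against 95.2% of all 11867 genes tested. Kat8 alone did not pass (adjusted p = 0.125). The genes moved in different directions. Phf20 RNA was high at 6 hpa and fell at 4C and again at 8C. Kansl3 rose at L2C, and Ogt fell at 14 hpa and rose in the blastocyst. Mcrs1 and Wdr5 rose in mean at the 8-cell stage with overlapping libraries, and the Wdr5 call was lost in 9 of 18 alternatives. TPM is a share of a library's RNA, and in bulk samples fewer cells of a type and less RNA per cell cannot be told apart.

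**Figure D1:**
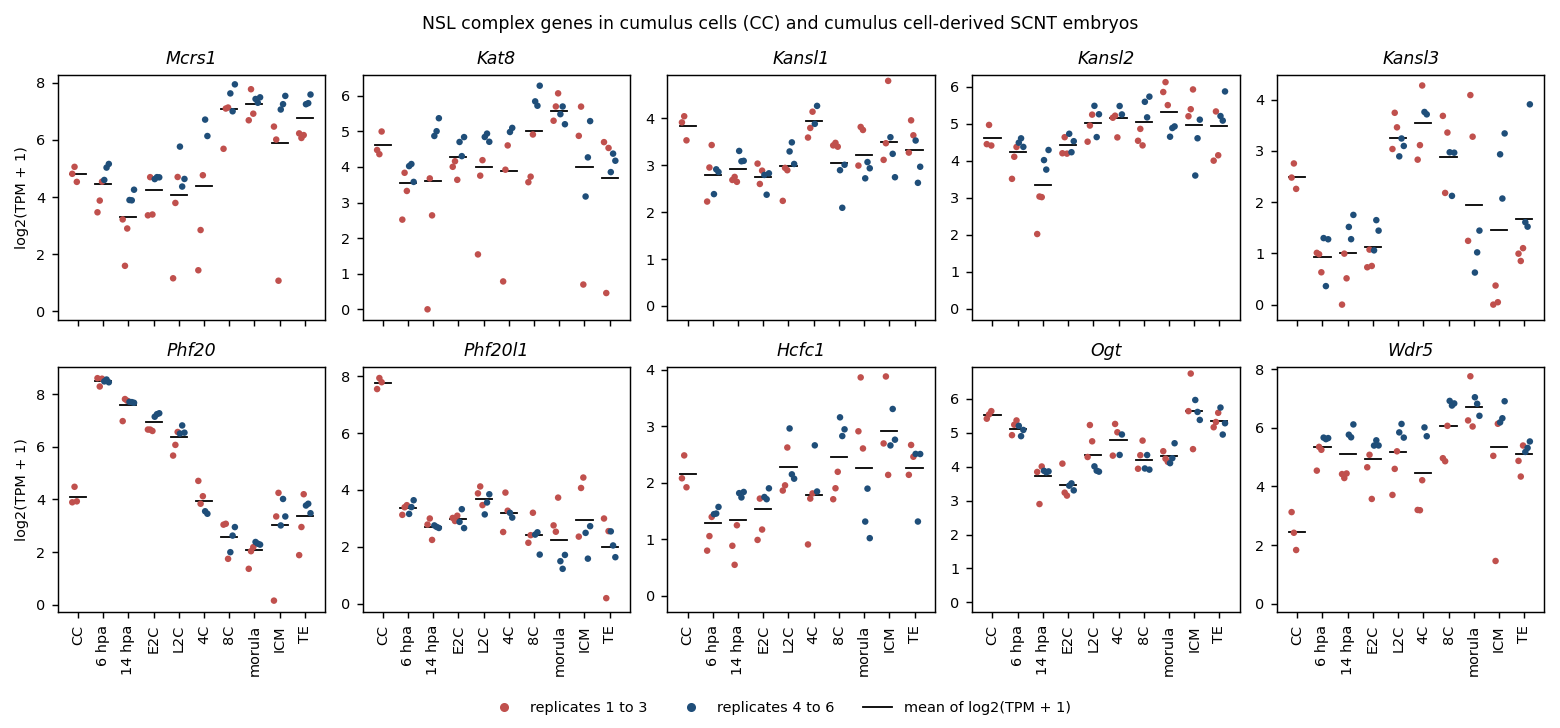
TPM of the 10 genes (vertical axis, log2(TPM + 1), with a scale of its own in each panel) in CCs and at the 9 SCNT stages and lineages (horizontal axis); each point is a library, red for replicates 1 to 3 and blue for replicates 4 to 6, and bars are means on that log scale. The mean of Phf20 goes from 363 TPM at 6 hpa to 3.38 TPM at morula while the mean of Mcrs1 is 22.6 TPM at 6 hpa and 158 TPM at morula.

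Mcrs1, the subunit after which the morpholino is named, had 27.2, 32.4 and 22.2 TPM in the CC libraries. It ranged from 10.1 to 34.8 TPM at 6 hpa (median 22.8), 2.02 to 18.2 at 14 hpa (11.1), 9.29 to 25.0 at E2C (24.3) and 1.23 to 53.5 at L2C (21.8). The 5 libraries at 4C held 1.71, 6.20, 26.2, 103.9 and 69.4 TPM, so that they ranged over more than an order of magnitude. From 8C on the levels were higher in nearly all libraries. They ranged from 50.7 to 245.7 TPM at 8C (median 137.9), from 102.2 to 218.2 at morula (164.4) and from 66.2 to 191.7 in the TE (112.8). The ICM libraries held 87.5, 63.7, 1.11, 133.0, 151.5 and 185.4 TPM, so that replicate 3, one of those with few detected genes, lay far below the others.

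In order of its mean, Mcrs1 was lowest at 14 hpa (10.4 TPM ± 5.90, SD, n = 6), then at E2C (19.6 ± 7.89, n = 6), 6 hpa (22.6 ± 9.68, n = 6), L2C (22.7 ± 17.4, n = 6), CC (27.2 ± 5.09, n = 3), 4C (41.5 ± 44.0, n = 5), SCNT ICM (103.7 ± 66.7, n = 6), SCNT TE (118.3 ± 54.3, n = 6), 8C (149.4 ± 66.4, n = 6) and morula (158.1 ± 42.0, n = 6). The means of neighbours in this order differed by less than the larger of their SDs, except those of 14 hpa and E2C, and that difference was not past the threshold in limma's fit. Of the consecutive steps, 8C against 4C was past the threshold for Mcrs1, with a log2 fold change of 2.70 (SE 0.755, limma adjusted p = 0.00731) on the log2(TPM + 1) scale. The step was 3.62 (adjusted p = 0.0176) in replicates 1 to 3 alone and 1.10 (adjusted p = 0.0121) in replicates 4 to 6 alone. Without 4C replicate 1, the library at 1.71 TPM, it was 1.97 (adjusted p = 0.0703). The means of replicates 4 to 6 were above those of replicates 1 to 3 at every SCNT stage, for example 15.3 against 5.61 TPM at 14 hpa and 86.7 against 11.4 TPM at 4C. The labels do not say whether the higher-numbered libraries were a separate batch. The paper's methods state 3 Smart-seq2 replicates per stage, while most SCNT stages hold 6 libraries here. The main fits put all libraries of a stage in the same group.

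Kat8, the catalytic subunit, held 21.2, 19.5 and 30.9 TPM in CCs. At 14 hpa its libraries separated by replicate number, with 0, 11.8 and 5.23 TPM in replicates 1 to 3 and 28.2, 31.1 and 40.3 TPM in replicates 4 to 6. It ranged from 4.73 to 15.9 TPM at 6 hpa, 10.9 to 76.7 at 8C and 35.7 to 66.0 at morula. In the blastocyst its levels were spread over 0.620 to 50.8 TPM in the ICM and 0.373 to 24.9 TPM in the TE. In none of the consecutive steps was the difference past the threshold, and the TE against morula came nearest (log2 fold change -1.89, limma adjusted p = 0.0559).

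Kansl1, the scaffold, had the smallest difference between SCNT stages of the 10 genes, with all 53 libraries between 3.27 and 26.9 TPM. CCs held 14.1, 15.5 and 10.6 TPM. The highest stage mean was at 4C (11.1 to 18.3 TPM, median 13.8) and the lowest at E2C (4.18 to 7.21 TPM). Its difference over stages had an adjusted p of 0.00799 (limma) and was 1.18 on the log2 scale between the lowest and highest stage, yet no single step was past the threshold.

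Kansl2 was at 3.06 to 18.5 TPM at 14 hpa (median 9.86) and was at 17.2 to 25.4 TPM at E2C. This step (log2 fold change 1.06, SE 0.344) had an adjusted p of 0.0481 in limma's fit. It was 1.65 in replicates 1 to 3 alone (adjusted p = 0.0084) and 0.47 in replicates 4 to 6 alone (adjusted p = 0.464). Later levels were higher, with 21.8 to 43.6 TPM at L2C and 24.0 to 68.5 TPM at morula.

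Kansl3 was low up to E2C. It held 0.284 to 1.46 TPM at 6 hpa (median 0.996), 0 to 2.37 at 14 hpa (1.21) and 0.657 to 2.13 at E2C (1.09), against 4.57, 5.75 and 3.78 TPM in CCs. At L2C all 6 libraries were between 6.43 and 12.4 TPM (median 8.00), above each of the 18 earlier SCNT libraries. The L2C step had a log2 fold change of 2.13 (SE 0.504, limma adjusted p = 0.000588) and was past the threshold in replicates 1 to 3 and in replicates 4 to 6 alone. From morula on Kansl3 differed strongly among libraries, with 0.543 to 16.01 TPM at morula, 0 to 9.13 in the ICM and 0.804 to 14.0 in the TE.

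Phf20, a reader of methylated lysine, had the largest range of the 10 genes. CCs held 13.9, 21.4 and 14.2 TPM. The 6 hpa libraries held 313.9 to 391.4 TPM on the reference row (median 368.5), at 71.4% of the summed TPM of the 10 genes. In these libraries the highest locus assembled over Phf20 held 327.4 to 1307 TPM. The later levels on the reference row were lower, at 125.4 to 225.2 TPM at 14 hpa (median 208.4), 96.5 to 154.5 at E2C (120.6) and 49.9 to 111.8 at L2C (91.1). At 4C it was 25.1, 13.3, 16.4, 10.7 and 9.98 TPM, below every L2C library. It was 2.35 to 7.43 TPM at 8C (median 5.95) and 1.57 to 4.22 at morula (3.71), below every 4C library, so that the mean at 6 hpa was 107 times that at morula. The steps past the threshold were 4C against L2C (log2 fold change -2.43, SE 0.407, limma adjusted p = 2.35e-06) and 8C against 4C (-1.36, SE 0.407, adjusted p = 0.0119). The second was -1.60 (adjusted p = 0.123) in replicates 1 to 3 alone, and -0.98 in replicates 4 to 6 alone (adjusted p = 0.00623), which is under 2-fold. In the blastocyst Phf20 was at 2.69 to 17.4 TPM in the TE (median 11.4) and 0.111 to 18.1 TPM in the ICM (9.23). The TE was higher than morula by 1.26 on the log2 scale (SE 0.388, adjusted p = 0.0125), with 1.15 (adjusted p = 0.282) in replicates 1 to 3 alone and 1.37 (adjusted p = 6.18e-05) in replicates 4 to 6 alone, and the ICM was not past the threshold.

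Phf20l1, the relative of Phf20, had the opposite pattern against the donor cells. CCs held 185.4, 242.7 and 219.2 TPM on the reference row, and no SCNT library held more than 20.7 TPM there. The highest locus assembled over Phf20l1 held 294.8, 365.8 and 365.6 TPM in CCs and reached 79.5 TPM in SCNT ICM replicate 3. At 6 hpa Phf20l1 was at 7.74 to 11.5 TPM on the reference row. Among the SCNT stages it was highest at L2C (7.83 to 16.4 TPM, median 12.1) and lowest in the TE (0.151 to 6.99 TPM). Its gene model is the longest of the 10 (9383 bases of transcript in GENCODE vM21), and TPM is a level per length.

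Hcfc1, host cell factor, was low on its reference row throughout the SCNT libraries. It ranged from 0.737 to 1.97 TPM at 6 hpa and was highest in the ICM, at 3.41 to 13.8 TPM (median 5.64). CCs held 3.23, 4.60 and 2.78 TPM on this row. The highest locus assembled over Hcfc1 reached 59.5 TPM in SCNT ICM replicate 2, where the reference row held 13.8. Over the 68 libraries such loci and the reference row correlated with Pearson's r = 0.794, beside 0.751 for Kansl1 and 0.757 for Ogt. The difference over stages had an adjusted p of 0.000292 (limma), and no single step was past the threshold.

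Ogt, the O-GlcNAc transferase, held 41.7, 45.6 and 48.9 TPM in CCs and 28.9 to 40.3 TPM at 6 hpa (median 34.5). At 14 hpa it was at 6.46 to 15.1 TPM (median 13.5), below every 6 hpa library. This step had a log2 fold change of -1.40 (SE 0.272, limma adjusted p = 0.000136). Morula libraries held 16.2 to 24.9 TPM (median 18.0). The ICM held 21.9 to 106.6 TPM (48.5) and the TE 29.9 to 52.7 TPM (38.5), and all TE libraries were above all morula libraries. The ICM differed from morula by 1.33 (SE 0.272, adjusted p = 0.000164) and the TE by 1.03 (SE 0.272, adjusted p = 0.00336) on the log2 scale. In replicates 1 to 3 alone the TE difference was 1.08 (adjusted p = 0.116), and in replicates 4 to 6 alone it was 0.98 (adjusted p = 0.00199), just under 2-fold.

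Wdr5, which presents histone H3 to its partner enzymes, was low in CCs at 7.71, 4.35 and 2.56 TPM and at 22.2 to 49.7 TPM at 6 hpa (median 43.8). The 4C libraries held 8.17, 8.11, 17.5, 63.5 and 51.3 TPM, and the 8C libraries 28.0 to 119.7 TPM (median 86.6), so that the groups overlapped. The 8C against 4C step (log2 fold change 1.60, SE 0.591, limma adjusted p = 0.0445) was not past the threshold without 4C replicate 1, 2 or 3, where the adjusted p was 0.167, 0.165 and 0.0863. In replicates 1 to 3 alone it was 1.76 (adjusted p = 0.124) and in replicates 4 to 6 alone 0.97 (adjusted p = 0.0021). Wdr5 was at 64.9 to 215.0 TPM at morula (median 97.8) and at 19.2 to 45.3 TPM in the TE (36.9), with no overlap. This fall had a log2 fold change of -1.62 (SE 0.563, adjusted p = 0.0289), with -1.82 (adjusted p = 0.104) in replicates 1 to 3 alone and -1.42 (adjusted p = 7.54e-06) in replicates 4 to 6 alone.

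In all, 11 differences were past the threshold among the 10 genes and the 8 steps. The counts were 1 of 10 for 14 hpa against 6 hpa (11.1% of all genes tested), 1 for E2C against 14 hpa (5.83%), 1 for L2C against E2C (34.9%), 1 for 4C against L2C (38.4%) and 3 for 8C against 4C (19.8%). Morula against 8C gave 0 of 10 in limma's fit, with 0 at an unadjusted p under 0.05, while 12.2% of all genes passed. ICM against morula gave 1 (24.0%) and TE against morula 3 (21.8%). The steps to L2C and to 4C, in which the largest shares of all genes passed, held 2 of the 11 differences. In every step some of the 10 genes had a higher and others a lower mean, as the heat map of the steps shows.

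**Figure D2:**
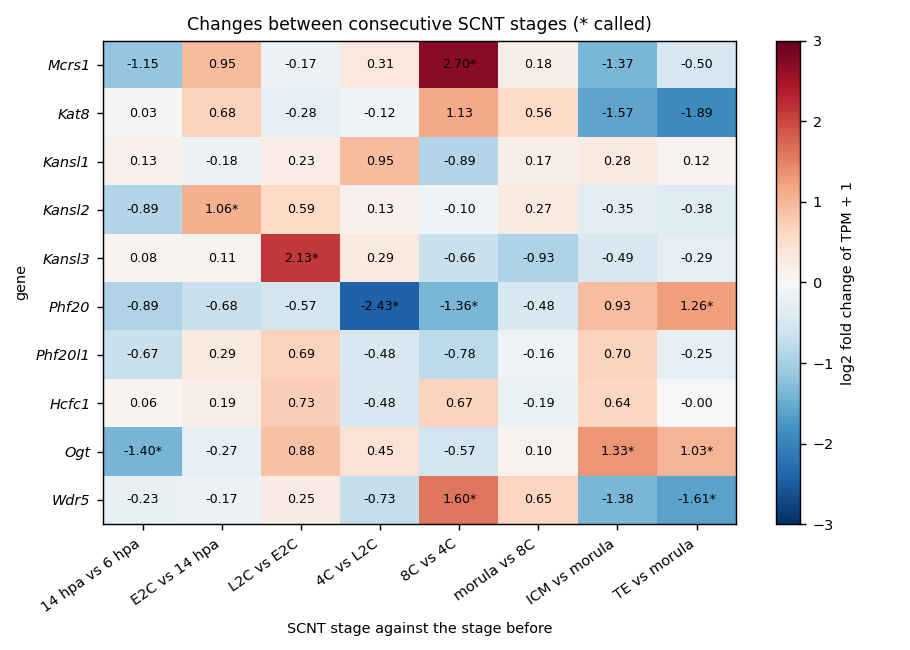
Heat map of the log2 fold change of each of the 10 genes (rows) in each consecutive SCNT step (columns), with the scale beside it and a star where the difference was past the threshold. The 11 stars fall on 6 genes, and every column holds both positive and negative values.

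The genes whose log2(TPM + 1) over the 53 SCNT libraries was most like that of Mcrs1 were Cyb561a3 (Pearson's r = 0.898), Pafah1b3 (0.890), Naa10 (0.883), Alkbh6 (0.883) and Abcf2 (0.879), given as a description over libraries that share stages and processing. None is an NSL gene. Of the 11866 other genes tested, Kat8 stood at rank 1837 (r = 0.625), Hcfc1 at 2271 (0.591), Wdr5 at 2653 (0.562) and Kansl2 at 4004 (0.440), followed by Ogt at 5097 (0.315), Kansl3 at 5552 (0.256), Kansl1 at 6791 (0.0594) and Phf20l1 at 10322 (-0.518). These ranks depend on the libraries, since r for Kat8 was 0.658 in replicates 1 to 3 and 0.226 in replicates 4 to 6, where that of Kansl2 was 0.576. Phf20 stood near the far end, at rank 11601 (r = -0.659).

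Between the SCNT ICM and TE, 0 of the 10 genes were past the threshold in limma's fit (5.34% of all genes). Phf20l1 (log2 fold change 0.95) was the 1 gene at an unadjusted p under 0.05. Replicates 4 to 6 alone gave 1 of 10, Wdr5, with 7.62% of all genes. Against CCs, the SCNT ICM differed in 2 of 10 (37.9% of 12084 genes), Phf20l1 (log2 fold change -4.80, SE 0.467, adjusted p = 1.05e-12) and Wdr5 (2.88, SE 0.683, adjusted p = 0.000498). The Wdr5 difference was 1.75 (adjusted p = 0.0653) with ICM replicates 1 to 3 alone and 4.01 (adjusted p = 6.1e-13) with replicates 4 to 6 alone.

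Embryos at 6 hpa differed from CCs in 5 of 10 (61.4% of all genes). Phf20 was higher at 6 hpa by 4.40 (SE 0.467, limma adjusted p = 5.51e-12) and Wdr5 by 2.89 (SE 0.683, adjusted p = 0.000238) on the log2 scale. Phf20l1 was lower (-4.39, SE 0.467, adjusted p = 6.18e-12), as were Kansl3 (-1.57, adjusted p = 0.0214) and Kansl1 (-1.04). The Kansl1 call was lost in 6 of 14 alternatives (limma adjusted p up to 0.179) and that of Kansl3 in 3 of 13 (up to 0.0766). With the replicate number as a block, the Kansl1 difference was -0.94, under 2-fold. These embryos also hold RNA of the oocyte, and oocytes were not analysed here.

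In the morpholino experiment, Mcrs1 itself was measured first, in every library. A morpholino blocks translation or splicing and need not lower the RNA of its target, and which of these applies here is not given in the sources used here. In the ICM, Mcrs1 was at 253.3 and 310.1 TPM under control MO, 218.2 and 242.3 under Max MO and 86.8 and 73.4 under Mcrs1 MO. In the TE it was at 218.7 and 294.0, 206.3 and 193.7, and 41.1 and 45.5 TPM. The Mcrs1 MO libraries were below all others in both lineages. The log2 fold change of Mcrs1 under Mcrs1 MO was -1.80 in the ICM (SE 0.215, limma adjusted p = 0.00333) and -2.53 in the TE (SE 0.215, adjusted p = 0.000868). Under Max MO it was -0.28 in the ICM (adjusted p = 0.352) and -0.34 in the TE (adjusted p = 0.41).

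Max, the target of the other morpholino and the dimer partner of MYC proteins, was more variable. In the ICM it was at 38.0 and 8.42 TPM under control MO and at 6.82 and 0.443 under Max MO (log2 fold change -2.51, SE 0.802, limma adjusted p = 0.0397). In the TE it was at 34.5 and 28.5 TPM under control MO and at 16.3 and 8.68 under Max MO (-1.32, SE 0.802, adjusted p = 0.39). The Max MO libraries were thus below both controls in each lineage, and the difference was past the threshold in the ICM. Under Mcrs1 MO, Max was at 14.4 and 9.25 TPM in the ICM and at 17.6 and 15.7 TPM in the TE, where both libraries were also below both controls. It was not past the threshold in either lineage under Mcrs1 MO. Fits with libraries left out were not followed for Max.

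**Figure D3:**
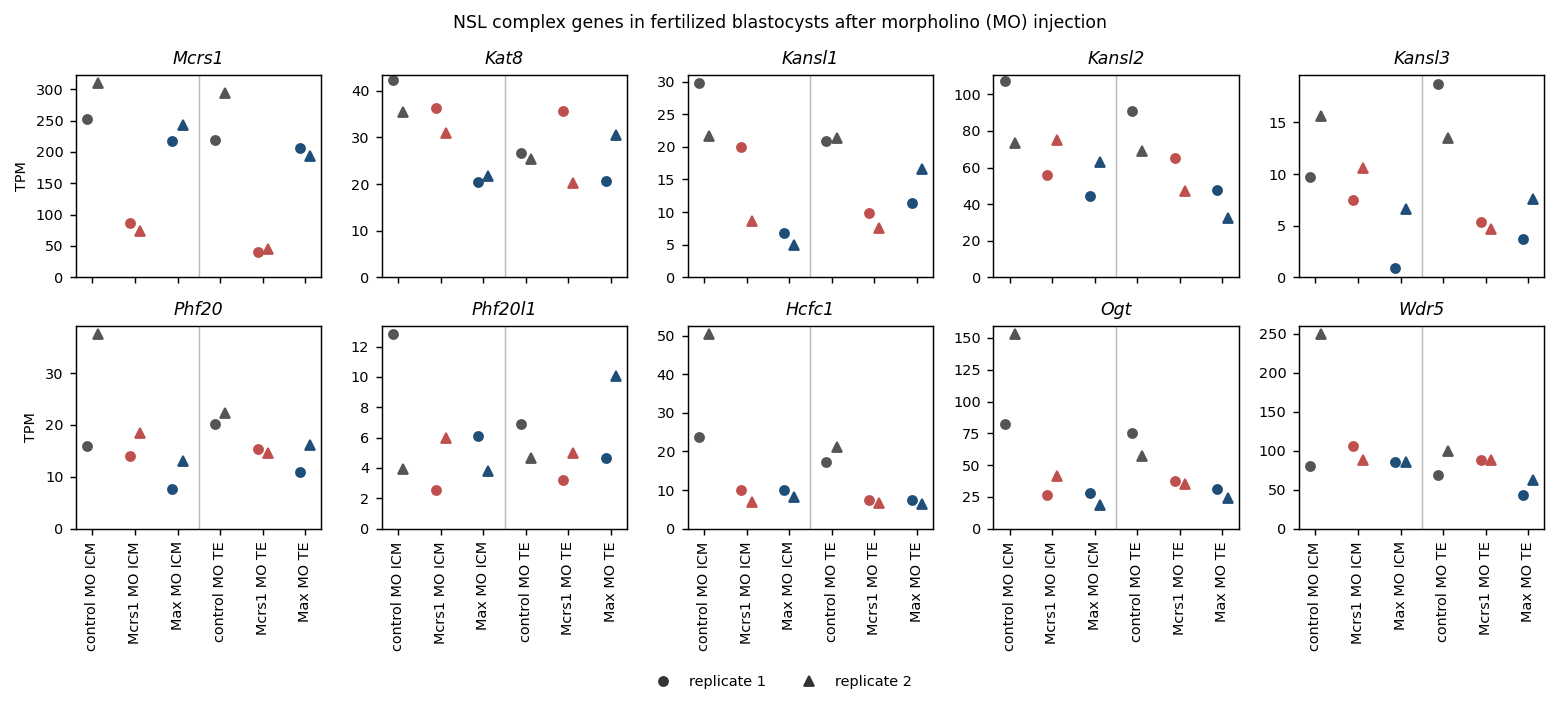
TPM (vertical axis, from 0) of the 10 genes in the ICM and TE (horizontal axis) of blastocysts under control MO (grey), Mcrs1 MO (red) and Max MO (blue); the circle is replicate 1 and the triangle replicate 2. Mcrs1 under Mcrs1 MO lies between 41.1 and 86.8 TPM, below the 193.7 to 310.1 TPM of the other libraries.

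The libraries of these groups differed in more than the morpholino. The paper gives unequal injected doses for them, highest for control MO, lower for Max MO and lowest for Mcrs1 MO. Morpholino and dose can therefore not be told apart in these contrasts. Control MO ICM replicate 1 held 16160 TPM of the 10 TE markers and replicate 2 379.5, with Cdx2 at 57.7 and 0.2 TPM, while both held a similar sum of the 10 ICM markers (828.7 and 951.9 TPM). The TE marker sum was 11660 and 8162 TPM in the ICM under Mcrs1 MO, 2760 and 5878 under Max MO, and 15190 to 21260 in the TE libraries. These sums, too, were mostly Krt8 and Krt18. In the ICM, Cdx2 was at 17.1 to 28.6 TPM under Mcrs1 MO and at 3.25 to 3.77 TPM under Max MO. Esrrb was below 1 TPM on average in every ICM group, as were Gata4 and Sox17 in the control MO ICM. Results in the ICM are therefore given with and without that library. Of the 9 ICM markers tested, Sox17 (log2 fold change 4.83) and Gata4 (3.43) were higher and Fgf4 (-2.30) and Klf2 (-2.64) lower in the ICM under Mcrs1 MO, and Sox17 (6.18) and Gata4 (3.23) were higher under Max MO. Among the 10 TE markers no gene passed limma's threshold in either contrast. The part of these marker differences in the values of the 10 genes was not tested.

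The pools also differed in sex-chromosome genes, which were looked at after Hcfc1 and Ogt had been seen to be low. Under control MO, Xist was at 23.5 and 12.3 TPM in ICM libraries and at 46.5 and 21.01 TPM in TE libraries, against 1.2 to 3.0 TPM in the ICM and 2.6 to 6.5 TPM in the TE under either morpholino. The Y-linked Eif2s3y was at 27.7 to 47.4 TPM in the 4 control libraries and at 95.8 to 152.4 TPM in the 8 others. Both genes were past the threshold in all 4 contrasts of a morpholino with control. Ddx3y, also Y-linked, was past it in none of these (limma adjusted p 0.405 to 0.912), at 0.58 under Mcrs1 MO and -0.66 under Max MO in the ICM and at -0.32 and 0.16 in the TE on the log2 scale. The 416 X-linked genes tested had a median log2 fold change of 0.24 under Mcrs1 MO and 0.08 under Max MO in the ICM, against -0.05 and -0.22 for autosomal genes, and 5.05% and 12.5% of them were called lower, against 5.21% and 15.2% of autosomal genes. Whether the makeup of the pools plays a part in the values of Hcfc1 and Ogt was not tested.

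Under Mcrs1 MO in the ICM, 3 of the 10 genes were lower, the target Mcrs1 itself, Hcfc1 and Ogt. Of all 11219 genes tested, 5.21% were called lower and 10.1% in either direction. The counts and medians of the 10 genes under Mcrs1 MO include this target, whose fall is not a response of its partners. The 10 genes all had a negative log2 fold change, with a median of -0.66 beside -0.05 over all genes, but the sign turned for Phf20, Phf20l1 and Wdr5 when 1 of the control libraries was left out. Both Mcrs1 MO libraries were below both controls for 4 of the 10 (Mcrs1, Kansl1, Hcfc1 and Ogt), as for 26.4% of all genes. Hcfc1 was at 23.7 and 50.4 TPM under control MO and at 10.1 and 6.83 under Mcrs1 MO (log2 fold change -1.93, SE 0.45, limma adjusted p = 0.0234). Ogt was at 82.1 and 152.8 TPM under control MO and at 26.7 and 41.0 under Mcrs1 MO (-1.73, SE 0.369, adjusted p = 0.0175). For both genes control replicate 2, the library with the lower TE marker sum, was the higher one.

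The remaining genes were not past the threshold in this contrast. Kansl1 was at 29.8 and 21.6 TPM under control MO and 19.9 and 8.65 under Mcrs1 MO (log2 fold change -0.90, limma adjusted p = 0.222). Kat8 was at 42.4 and 35.5 TPM against 36.4 and 30.9 (-0.21, adjusted p = 0.728). For Wdr5 the control libraries were themselves far apart, at 79.8 and 249.6 TPM, with 105.7 and 88.0 under Mcrs1 MO. Kansl2 was at 107.1 and 73.6 TPM against 56.2 and 75.0, Phf20 at 15.96 and 37.6 against 13.9 and 18.4, and Phf20l1 at 12.8 and 3.93 against 2.54 and 5.97, and in each the groups overlap. Kansl3, at 9.74 and 15.6 TPM against 7.51 and 10.6, overlaps as well.

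Without control MO ICM replicate 1, 4 of 10 were lower under Mcrs1 MO, Mcrs1, Hcfc1 (log2 fold change -2.46, adjusted p = 0.004 in limma), Ogt (-2.17, adjusted p = 0.00263) and Wdr5 (-1.36, adjusted p = 0.00859), with 22.4% of all genes called. Without control replicate 2 it was 2 of 10, Mcrs1 and Ogt (-1.29, adjusted p = 0.0424), and Hcfc1 had -1.40 (adjusted p = 0.0667), with 12.3% of all genes called. Without Mcrs1 MO replicate 1 or replicate 2 it was Mcrs1 alone, with 0.784% and 2.17% of all genes called. Hcfc1 was also not past the threshold with quantile normalization (-1.69, adjusted p = 0.0501) or with a trend on transcript length removed (-1.29, adjusted p = 0.0615). Fitting the ICM libraries without those of the TE gave 0 of 10 and 0.0176% of all genes.

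In the TE, the target Mcrs1 alone of the 10 was past the threshold under Mcrs1 MO, and none of its partners was. Of all genes, 3.31% were called lower there and 5.08% in either direction. The median log2 fold change of the 10 was -0.67, beside -0.24 over all genes. Both Mcrs1 MO libraries were below both controls for 7 of the 10, the target among them, as for 40.3% of all genes. Hcfc1 was at 17.3 and 21.04 TPM under control MO and 7.32 and 6.72 under Mcrs1 MO (log2 fold change -1.33, limma adjusted p = 0.101). Kansl1 was at 20.9 and 21.3 TPM against 9.92 and 7.59 (-1.19, adjusted p = 0.14), and Kansl3 at 18.7 and 13.4 TPM against 5.31 and 4.72 (-1.49, adjusted p = 0.185). In each of the last 3 genes the groups do not overlap. Fitted on the TE libraries alone, these 3 genes passed beside Mcrs1, with 14.3% of all genes.

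Under Max MO in the ICM, 3 of the 10 genes were lower, Kansl1, Hcfc1 and Ogt, where 15.1% of all genes were called lower and 23.7% in either direction. The control libraries are those used for Mcrs1 MO, so the contrasts are not independent, and the values are set side by side only. The 10 log2 fold changes were all negative, with a median of -1.03 beside -0.21 over all genes, but that of Wdr5 turned without control replicate 2 and that of Phf20l1 without control replicate 1, with quantile normalization or with the transcript length trend removed. Both libraries were below both controls for 8 of the 10, as for 33.4% of all genes. Ogt was at 28.0 and 18.6 TPM (log2 fold change -2.25, SE 0.369, limma adjusted p = 0.00229). Hcfc1 was at 10.1 and 8.28 TPM (-1.81, SE 0.45, adjusted p = 0.0143). Kansl1 was at 6.77 and 5.00 TPM (-1.95, SE 0.461, adjusted p = 0.0116). Kansl3, at 9.74 and 15.6 TPM under control MO, was at 0.921 and 6.61 under Max MO (-1.80, adjusted p = 0.0605).

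Without control MO ICM replicate 1, 5 of 10 were lower under Max MO, the same 3 genes with Wdr5 (log2 fold change -1.54, limma adjusted p = 0.00372) and Phf20 (-1.81, adjusted p = 0.012), and 30.3% of all genes were called. Without control replicate 2, 2 of 10 were lower, Kansl1 (-2.18, adjusted p = 0.00999) and Ogt (-1.80, adjusted p = 0.00451), with Hcfc1 at -1.29 (adjusted p = 0.0547) and 30.2% of all genes called. Without Max MO replicate 2, Hcfc1 (-1.69, adjusted p = 0.0719) and Kansl1 (-1.77, adjusted p = 0.0648) were not past the threshold. Nor were they with the transcript length trend removed, at -0.86 (adjusted p = 0.144) for Hcfc1 and -1.22 (adjusted p = 0.0711) for Kansl1. With quantile normalization Hcfc1 had -1.35 (adjusted p = 0.0662). The ICM libraries alone gave Ogt only, with 9.42% of all genes.

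In the TE, 0 of the 10 were past the threshold under Max MO in limma's fit, where 1.45% of all genes were called lower and 2.50% in either direction. The 3 genes at an unadjusted p under 0.05 were Kansl2 (90.9 and 68.9 TPM under control MO, 48.0 and 32.2 under Max MO, log2 fold change -0.99), Hcfc1 (7.53 and 6.46 TPM under Max MO, -1.33) and Ogt (75.6 and 56.9 TPM against 31.3 and 24.5, -1.22). The TE libraries alone gave 2 of 10, Hcfc1 and Ogt, with 9.54% of all genes. The median of the 10 was -0.65, beside -0.19 over all genes, and both Max MO libraries were below both controls for 8 of the 10, as for 36.3% of all genes.

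**Figure D4:**
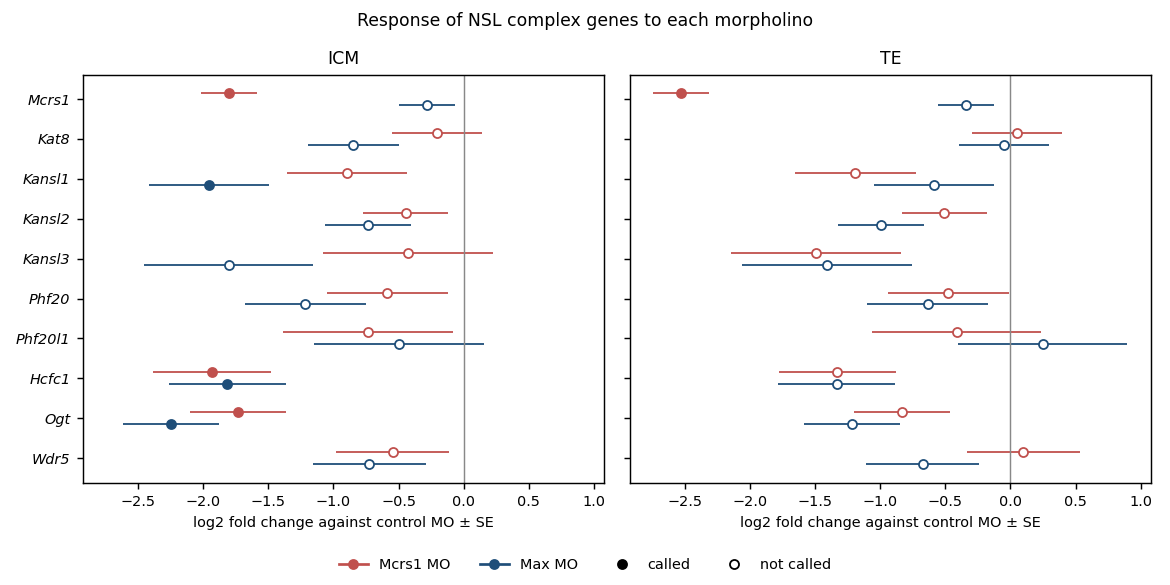
Log2 fold change (horizontal axis, with SE bars) of the 10 genes under Mcrs1 MO and Max MO against control MO in the ICM and TE; filled points are past the threshold. Mcrs1 is at -1.80 and -2.53 under Mcrs1 MO, and Hcfc1 and Ogt are filled in the ICM under both morpholinos.

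Whether a morpholino acted differently in the ICM and TE was tested by the interaction. For Mcrs1 MO and for Max MO, 0 of the 10 genes were past the threshold in limma's fit, as for 0% of all genes, with 1 and 0 genes at an unadjusted p under 0.05. That gene was Mcrs1, with a difference of 0.73 on the log2 scale (SE 0.304, limma adjusted p = 0.555). The Ogt changes differed by -0.90 (SE 0.521, adjusted p = 0.657) under Mcrs1 MO and by -1.03 (SE 0.521, adjusted p = 0.429) under Max MO. Without control MO ICM replicate 1, 1 interaction was past the threshold, that of Wdr5 with Mcrs1 MO, with 7.54% of all genes. Under control MO, 0 of 10 differed between the ICM and TE in limma's fit (2.92% of all genes; 0 at an unadjusted p under 0.05), and 2 did, Ogt and Wdr5, without that library, with 20.5% of all genes.

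Set beside the SCNT blastocysts, the control MO blastocysts held higher values of Hcfc1 and Mcrs1, which were chosen for this after their values had been seen. Hcfc1 was at 23.7 and 50.4 TPM under control MO and at 3.41 to 13.8 TPM in SCNT embryos for the ICM, and at 17.3 and 21.04 TPM against 1.48 to 5.37 TPM in the TE. The highest locus assembled over Hcfc1 held 24.3 and 54.0 TPM under control MO and 14.7 to 59.5 TPM in SCNT embryos for the ICM, so that these overlap. In the TE such loci held 22.4 and 29.7 TPM against 5.39 to 16.1 TPM. On the reference row, Mcrs1 was at 253.3 and 310.1 TPM against 1.11 to 185.4 TPM in the ICM, and at 218.7 and 294.0 against 66.2 to 191.7 TPM in the TE. In these 4 pairs the ranges of the reference rows do not overlap. Nor do they for other members: both control libraries lay above all 6 SCNT libraries for 4 of the 10 genes in the ICM (with Kansl2 and Kansl3), as for 23.1% of all genes, and for 8 in the TE (with Kat8, Kansl1, Kansl2, Phf20, Ogt and Wdr5), as for 32.3%. The libraries differ in experiment, in strain (BDF1 or C57BL/6j) and in the share of TPM on reference genes (85.5 to 90.3% against 74.6 to 90.9% in these libraries). They also differ in Y-linked RNA, with Eif2s3y at 27.7 to 47.4 TPM under control MO and at most 0.0689 TPM in any SCNT library. Embryo type, sex and experiment therefore cannot be told apart, and no test was made.

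The genes of related complexes were counted in the same fits. Beside these counts, 5.21% of all genes were called lower in the ICM under Mcrs1 MO and 15.1% under Max MO. In the TE these shares were 3.31% and 1.45%. Of the 3 MSL genes, which share KAT8 with the NSL complex, none of the contrasts with control MO called any. Msl3 fell at L2C (log2 fold change -1.68, limma adjusted p = 0.00509), where 34.9% of all genes were called in either direction. Msl2 fell at 4C (-1.60, adjusted p = 0.00285) and at 8C (-1.49, adjusted p = 0.0124), where these shares were 38.4% and 19.8%. Of the 14 further INO80 genes, the other complex of MCRS1, 2 were lower in the ICM under Mcrs1 MO, the ATPase Ino80 (-2.23, adjusted p = 0.0371) and Ino80d (-2.09, adjusted p = 0.034). Under Max MO 3 were lower in the ICM, among them Ino80 (-2.87, adjusted p = 0.00634) and Ino80d (-2.002, adjusted p = 0.0202), and in the TE 0 were called under either. Over the SCNT steps, 6 of the 14 rose and 0 fell at L2C, where 34.9% of all genes were called in either direction, and the risers included Yy1 (2.91) and Ino80c (2.01). At 4C and at 8C, 3 rose and 1 fell in each step, where 38.4% and 19.8% of all genes were called in either direction. The 8C risers included the ATPase Ruvbl2 (2.48) and Ino80e (2.72). At 14 hpa 1 fell, where 11.1% of all genes were called in either direction. Against morula 4 were lower in the ICM (24.0% of all genes in either direction) and 2 in the TE (21.8%).

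Of the 10 further COMPASS genes, the methyltransferase complexes that WDR5 joins, 1 was lower in the ICM under Mcrs1 MO (5.21% of all genes). It was the CpG-binding Cxxc1 (log2 fold change -2.58, limma adjusted p = 0.0219). Under Max MO in the ICM 3 were lower (15.1% of all genes), among them Men1 (-2.33) and the methyltransferase Kmt2b (-2.31), and Dpy30 was higher (1.04). Of 6 genes for MYST acetyltransferases and lysine 16 deacetylases, 4 were lower in the ICM under Max MO (15.1% of all genes), among them Kat6b (-1.99) and Sirt1 (-1.62). Under Mcrs1 MO 0 were lower (5.21%). Of 6 genes for O-GlcNAc removal and its sugar donor, Uap1 was higher (2.20) and Gnpnat1 lower (-1.45) in the ICM under Max MO. Over the SCNT steps, shares of all genes called in either direction are in brackets. At L2C 4 of the 6 rose and Gnpnat1 fell (-1.07, limma adjusted p = 0.0045) (34.9%). At 4C 2 rose (38.4%), at 8C 1 rose and 1 fell (19.8%), and at morula 3 fell (12.2%). Against morula, 2 were lower in the ICM (24.0%) and 3 in the TE (21.8%). Of 3 paralogues of the NSL genes, Kansl1l was lower in the ICM under Max MO (-1.98). In the TE, 0 genes of the 6 lists of related genes were called under either morpholino.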

How the data were processed

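RNA-seq tables of 68 libraries were used, 3 of CCs, 53 of SCNT embryos and 12 of morpholino-injected fertilized embryos. Groups and replicate numbers came from the labels. The authors used cutadapt 1.16 for trimming, HISAT2 for mapping (mm10), StringTie for quantification and DESeq2 for comparing genes. Per the submitters' processing notes, Cufflinks and deepTools were also used, in a role that is not stated there. The paper names deepTools for signal tracks and plots of its chromatin data, and Cufflinks only within a HISAT2 setting. The authors deposited, for each library, a coverage signal, an FPKM and a TPM value per gene. The deposited TPM column holds loci assembled in that library, and on the same scale the reference genes used here. Deposited FPKM and coverage signal served only to estimate aligned gigabases. The depth was 1.00 to 5.17 gigabases per library, and since counts are not in the tables, no count test, interval or floor is given.

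The TPM of a gene was summed over its rows. log2(TPM + 1) was fitted with limma 3.58.1 (lmFit, eBayes with trend, R 4.3.3) for genes whose mean TPM in the fitted libraries was 1 or more, with 6 morpholino groups, 9 SCNT groups, or the SCNT groups with CCs. The threshold was an adjusted p under 0.05 (Benjamini-Hochberg, over all genes tested) with at least a 2-fold change. Fold changes on this scale understate those of low genes. Consecutive contrasts, the lineages, the interaction of morpholino and lineage, and an F-test over SCNT groups were computed. The fits were checked on simulated data. Tables and figures used Python 3.11.15, numpy 2.4.6, pandas 2.3.3 and matplotlib 3.10.9.

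The 10 genes and the lists of related and marker genes were chosen with earlier results of these data known. All 10 are described whatever their values, and related genes named are up to 2 per direction with the largest change among those past the threshold. The gene Oga is listed as Mgea5 and was matched by synonym. For 1 of the 4C libraries the label gives replicate 5 and the table's name 6, and the label was followed.

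Same-numbered libraries deviated together, as measured by the correlation across genes of deviations from group means, in all 6 pairs for 14 hpa against 6 hpa (mean r = 0.265) and for the SCNT ICM against TE (mean r = 0.185). In no other comparison with 3 or more pairs was every pair's correlation over 0.1, with 5 of 6 pairs for the step to E2C, 5 of 6 for that to L2C and 4 of 5 for that to 4C. The labels name no shared litter or day. Alternatives tried were a pseudocount of 0.1, no filter, a mean TPM of at least 5, no fold threshold, rescaled and quantile-normalized TPM, the largest row, a transcript length trend removed, fits of fewer libraries, a replicate block and left-out libraries. Leaving out the 3 SCNT ICM libraries under 7000 detected genes, or the 2 SCNT libraries with under 45% of TPM on reference genes, was added after the data had been seen. Morpholino sequences were not used here.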

Additional observations from a re-analysis of the deposited data

Results flagged for a closer look

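In 90 sets of libraries (a gene in a group of 5 or 6), 5 had a highest or lowest library whose gap to the next one was above Dixon's limit, and chance flags about 1 set in 20. Kansl1 in SCNT ICM replicate 3 was at 26.9 TPM, with the next library at 11.1 TPM. Kansl3 in SCNT TE replicate 6 was at 14.0 TPM, with the next at 2.05 TPM. Phf20 in 14 hpa replicate 1 was at 125.4 TPM, with the next at 204.0 TPM. Ogt in 14 hpa replicate 2 was at 6.46 TPM, with the next at 13.3 TPM, and Ogt in E2C replicate 1 was at 16.1 TPM, with the next at 10.4 TPM. SCNT ICM replicate 3 is 1 of the libraries with few detected genes. The cause was not tested.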

How the results depend on the processing

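Of 169 recomputed counts of called genes, 155 were within 1.5 times the reported count. Fitted on the libraries of one lineage alone, the count under Mcrs1 MO went from 3 to 0 in the ICM and from 1 to 4 in the TE, and under Max MO from 3 to 1 in the ICM and from 0 to 2 in the TE; these fits hold 6 libraries. Leaving out single libraries gave 1 to 4 genes for Mcrs1 MO and 2 to 5 for Max MO in the ICM, 1 to 1 and 0 to 0 in the TE, 0 to 1 for the interactions, 0 to 2 for control MO ICM against TE, and 3 to 5 for 6 hpa against CC, where the 3 came without CC replicate 1 or 2. Quantile normalization gave 3 for 6 hpa against CC. Replicates 4 to 6 alone gave 18 differences between consecutive SCNT stages in place of 11, and 1 in place of 0 for SCNT ICM against TE. The cause of these changes was not tested beyond the fewer libraries.

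Of 1016 recomputed fold changes of single genes, 932 kept their direction and side of the threshold, 57 lost the call, 11 gained it and 16 turned, each of the last in a contrast that was not past the threshold. With single libraries left out, the log2 fold change in the ICM under Mcrs1 MO ranged from -1.18 to 0.0065 for Phf20 and from -1.36 to 0.27 for Wdr5 (positive without control MO ICM replicate 2), and from -1.48 to 0.0085 for Phf20l1 (positive without replicate 1). Under Max MO it ranged from -1.54 to 0.092 for Wdr5 and from -1.24 to 0.25 for Phf20l1, positive without the same libraries. In the TE under Mcrs1 MO, Kat8 had -0.011 with rescaled TPM, -0.345 with the length trend removed and -0.345 to 0.44 with single libraries left out, Phf20l1 had 0.16 with quantile normalization and 0.21 with the length trend removed, and Wdr5 had -0.17 to 0.36 with single libraries left out (negative without control MO TE replicate 1). Under Max MO, Phf20l1 in the ICM had 0.0088 with quantile normalization and 0.50 with the length trend removed, and in the TE -0.23 to 0.73 with single libraries left out (negative without Max MO TE replicate 2). Kat8 in the TE had 0.26 with quantile normalization and -0.32 to 0.23 with single libraries left out (positive without Max MO TE replicate 1). Hcfc1 under Mcrs1 MO in the ICM lost the call in 6 of 14 alternatives, with adjusted p (limma) from 0.004 to 0.131, and Ogt under Max MO in none.

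The replicate block gave 3, 1, 3 and 0 genes for the 4 morpholino contrasts and 13 consecutive SCNT differences in place of 11, with Wdr5 for the ICM and Kat8 for the TE against morula, and it added Phf20 for SCNT ICM against CC. It ended the call of Kansl1 at 6 hpa against CC (-0.94) and changed no other call. Quantile normalization moved the median of all genes under Mcrs1 MO in the TE from -0.24 to -0.01 and the higher and lower calls from 199 and 371 to 173 and 156; under Max MO in the ICM these went from 970 and 1689 to 1134 and 1021, at L2C from 2812 and 1329 to 2307 and 2486, and at 4C from 1404 and 3155 to 2394 and 2232. TPM rescaled over reference genes moved those at 8C from 1370 and 977 to 840 and 1799. A filter at a mean TPM of at least 5 left 8 of the 10 genes in the SCNT fits, without Hcfc1 and Kansl3. Kansl3 was below 1 TPM in 14 of 53 SCNT libraries, and the part of depth in this was not tested.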
